A study of Mus musculus with 6 samples.

Results

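The 10 genes described here are the genes of the Zscan4 program that the deposited table lists under the symbols Zscan4b, Zscan4c, Zscan4d, Zscan4e, Zscan4f, Tcstv1, Tcstv3 and Zfp352, with their upstream regulators Dppa2 and Dppa4. They are 10 of 43309 genes in the table. They were picked by symbol with their difference between the groups of this study already known, so the differences between groups are given as descriptions and without a test. The libraries were made from mouse embryonic stem cells (mESCs) of strain J1 (129SV), grown in serum medium on gelatin with no feeder cells. The control group held 3 lines labelled Zbtb24 wild-type (2lox/+), and the other group held 3 lines labelled Zbtb24 knockout (1lox/1lox), where 1lox denotes a recombined allele with a single remaining loxP site. The control lines therefore carried a conditional allele as well. The lines of a group are described as separate clones, derived independently of one another. Each line gave 1 library, and no treatment was applied.

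In their full-length form, Zscan4 proteins carry a SCAN domain and zinc fingers. Their genes are switched on in the 2-cell mouse embryo and, in mESC cultures, in a small and changing fraction of cells that resembles that stage, where they act in telomere maintenance. The homeodomain factor Dux switches on this program, and the DNA-binding proteins Dppa2 and Dppa4, which most mESCs make, act upstream of Dux. In RNA from a whole culture, fewer cells of this kind and less RNA in each of them cannot be told apart.

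The windows upstream of 4 members are printed here because the Zscan4 copies share nearly the same sequence there and Zfp352 does not. Promoter windows were found in RefSeq (build GRCm38.p6, mm10) for 5 of the 10 members, namely Zscan4b, Zscan4c, Zscan4d, Zscan4f and Zfp352. Each sequence is the 250 bases before the annotated start, 5′ to 3′ on the strand of the gene, with capitals marking the letters TATAAA. Zscan4f lies at chr7:11397665-11397914 on the plus strand, Zscan4d at chr7:11166149-11166398 on the minus strand, Zscan4b at chr7:10905051-10905300 on the minus strand and Zfp352 at chr4:90218570-90218819 on the plus strand.
Zscan4f: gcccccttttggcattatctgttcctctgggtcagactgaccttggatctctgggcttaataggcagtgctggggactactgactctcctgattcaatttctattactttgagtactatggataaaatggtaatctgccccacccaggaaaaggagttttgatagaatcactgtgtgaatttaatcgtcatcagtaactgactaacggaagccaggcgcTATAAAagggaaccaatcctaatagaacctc
Zscan4d: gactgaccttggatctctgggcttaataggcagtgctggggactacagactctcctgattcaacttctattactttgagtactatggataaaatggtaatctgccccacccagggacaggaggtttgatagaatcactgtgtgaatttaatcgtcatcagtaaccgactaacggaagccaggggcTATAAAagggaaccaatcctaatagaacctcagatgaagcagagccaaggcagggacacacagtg
Zscan4b: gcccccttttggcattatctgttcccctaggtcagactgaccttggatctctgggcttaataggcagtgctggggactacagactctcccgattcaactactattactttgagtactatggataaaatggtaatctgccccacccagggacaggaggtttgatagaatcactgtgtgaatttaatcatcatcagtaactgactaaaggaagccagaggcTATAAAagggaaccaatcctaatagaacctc
Zfp352: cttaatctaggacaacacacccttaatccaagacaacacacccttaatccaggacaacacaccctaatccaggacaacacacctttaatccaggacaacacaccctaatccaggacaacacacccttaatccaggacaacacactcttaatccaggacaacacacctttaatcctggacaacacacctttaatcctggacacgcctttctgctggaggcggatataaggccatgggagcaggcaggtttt

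In windows of 300 bases that also took in 50 bases after the start, the 4 Zscan4 copies were 95.3% to 99.3% identical to each other over the aligned stretch (6 pairs, median 97.5%). TATAAA, searched on both strands, was found in the windows of Zscan4b, Zscan4c, Zscan4d and Zscan4f, with its first base at position -31 from the annotated start in Zscan4b and Zscan4f, -54 in Zscan4c and -65 in Zscan4d. The same letters were found in 13.6% of 32851 windows of the table and in 3 of 18 windows of other 2-cell-stage genes. The Zfp352 window held no TATAAA, though the similar letters tataag, which were not searched for, stand near the end of its printed sequence. It held 8 matches of GGACAACACAC, one of the most frequent words of its length there, picked after the sequence had been seen. No other window of the table held that word on either strand. The windows of all 5 members had few CpG sites, with 2 in Zfp352, 1 in Zscan4b, 4 in Zscan4c, 3 in Zscan4d and 3 in Zscan4f, where the median window had 7 (quartiles 3 and 20) and 38% of windows had 4 or fewer.

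Library totals ranged from 26987179 to 27754105 counted fragments in the control group and from 25042261 to 28838924 in the other. Zbtb24 itself had 510, 512 and 489 counts in the control group against 888, 925 and 1039 in the other, so its RNA was higher in the lines labelled knockout. The counts do not show which exons these fragments came from, so they neither bear out nor contradict the label. The second group is therefore called the libraries labelled knockout. A minimum of 10 counts in any library kept 16823 genes. Of these, 69.5% passed the quasi-likelihood test of edgeR at a Benjamini-Hochberg adjusted p of 0.05. Levels in the libraries labelled knockout were called lower for 35.2% and higher for 34.4%. The common coefficient of variation between libraries of a group, beyond counting error, was 2% in the edgeR estimate. The p-values and SDs given here rest on this small spread. Whether it is that of separately derived lines was not tested. The 10 mESC markers were present in every library, with summed levels of 5107 to 5218 counts per 1000000 fragments (cpm) in the controls and 6792 to 6835 in the libraries labelled knockout, and 9 of them rose and Zfp42 fell. Of 5 fibroblast markers 4 were called lower, of which Col3a1 passed the filter through the controls alone, with Col1a1 at 1095, 1126 and 1188 counts in the controls and 92, 110 and 107 in the libraries labelled knockout, and the summed level of the list was 59.6 to 61.8 cpm against 12.3 to 13. Of 5 primitive endoderm markers 3 were called lower and 1 higher, with Sox17 and Foxa2 passing the filter through the controls alone, at summed levels of 4.66 to 4.84 against 4.29 to 5.77 cpm, and of 5 trophoblast markers 2 fell and 2 rose, at 62.7 to 63.8 against 77.4 to 79.6 cpm. No marker was at 0 in all 6 libraries. The part of these other cell types in the results on the members was not tested.

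The Zscan4 copies were the members with the most fragments apart from Dppa2 and Dppa4, and each was far lower in the libraries labelled knockout. Zscan4f (ENSMUSG00000070828, mm10 chr7:11397915-11402318, plus strand) had 594, 534 and 562 counts in the controls against 16, 25 and 24 in the libraries labelled knockout. Zscan4d (ENSMUSG00000090714, chr7:11161374-11166159, minus strand) had 420, 428 and 423 against 25, 18 and 15. In both genes the highest library labelled knockout stayed far below the lowest control library. Zscan4c (ENSMUSG00000054272, chr7:11005745-11010547, plus strand) had 307, 326 and 340 counts against 12, 8 and 10. Zscan4b (ENSMUSG00000095339, chr7:10900740-10905050, minus strand) had 146, 145 and 175 against 4, 2 and 5. Zscan4e (ENSMUSG00000095936, chr7:11306378-11310682, minus strand) had 92, 68 and 87 against 5, 0 and 1, so that 1 library labelled knockout held most of its few fragments. Without that library (replicate 1) the fitted log2 fold change of Zscan4e went from -5.21 to -6.98.

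After scaling by the trimmed mean of M-values (TMM), the control libraries had 24.7 times as much Zscan4f RNA as the libraries labelled knockout (95% exact interval 19.3 to 32.2), at 20.3 ± 0.85 against 0.826 ± 0.20 cpm (SD, n = 3 lines each). The ratio was 20.8 (16.0 to 27.6) for Zscan4d and 30.8 (21.5 to 45.9) for Zscan4c. It was 40.3 (22.3 to 81.2) for Zscan4b and 39.1 (17.7 to 108) for Zscan4e, with wide intervals that overlap those of Zscan4f and Zscan4c. These intervals rest on counts pooled over the 3 lines of a group, so they cover counting error only and not the spread between lines. PCR copies were not marked, so the intervals may be too narrow even for counting error. Summed over the 5 copies, the libraries held 1559, 1501 and 1587 counts against 62, 53 and 55. This was 55.9 ± 1.66 cpm in the controls and 2.16 ± 0.213 cpm in the libraries labelled knockout, or 3.85% of the control level. In the plot of the members by library the groups of each copy lie far apart, whereas the groups of Dppa2 and of Dppa4 lie close together. For the copies the libraries labelled knockout look more scattered than the controls. On a log axis counting error alone spreads low counts more widely, so this scatter is not read as a difference between lines.

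**Figure D1:**
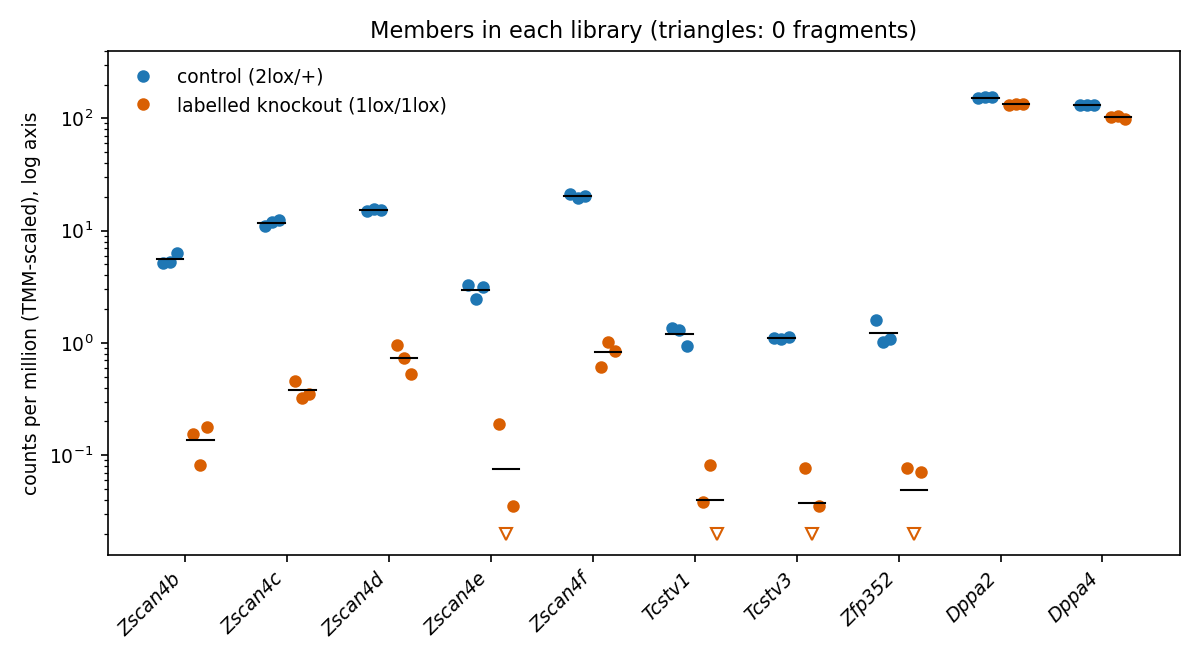
Level of each of the 10 members in each library, as TMM-scaled cpm on a log axis, for 3 control and 3 labelled knockout libraries (points) with the group mean (line); open triangles are libraries with 0 fragments. Zscan4f lies near 20.3 cpm in the controls and 0.826 cpm in the libraries labelled knockout, whereas Dppa4 lies at 132.0 and 102 cpm.

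The order of the Zscan4 copies is not an order of their RNA, because the authors discarded fragments that mapped to more than 1 place. Whole transcripts of the 5 copies were 96.6% to 99.7% identical over their aligned stretches (10 pairs, median 97.6%), with Zscan4b and Zscan4e the closest pair and Zscan4b and Zscan4d the farthest. Cut into windows of 76 bases, the read length, 60.9% of the Zscan4d transcript but only 7.70% of Zscan4f occurred in no other annotated gene, with 21.7% for Zscan4c, 15.7% for Zscan4b and 12.8% for Zscan4e. Each copy shared windows with 9 other genes. A fragment has a read at either end, so it can be placed somewhat more often than these shares show. Zscan4f thus kept the most fragments although the smallest share of its annotated transcript was unique. The windows and the placing of fragments both rest on the reference genome. Whether the strain of these cells carries the same copies with the same sequences was not tested. The counts, ratios and shares given for single Zscan4 copies carry this limit.

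Zscan4f and Zscan4d held the largest shares of the summed Zscan4 fragments in both groups. Zscan4f took 36.4% of the fragments (95% Clopper-Pearson interval 35.0 to 37.8) in the controls and 38.2% (30.9 to 46.0) in the libraries labelled knockout. Zscan4d took 27.4% (26.1 to 28.7) and 34.1% (27.0 to 41.8), and Zscan4c took 20.9% (19.8 to 22.1) and 17.6% (12.2 to 24.2). The smaller shares were 10% (9.18 to 10.9) and 6.47% (3.27 to 11.3) for Zscan4b, and 5.32% (4.69 to 6.0) and 3.53% (1.31 to 7.52) for Zscan4e. The intervals of the groups overlap for every copy, and those of the libraries labelled knockout are wide because they rest on 170 fragments.

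**Figure D2:**
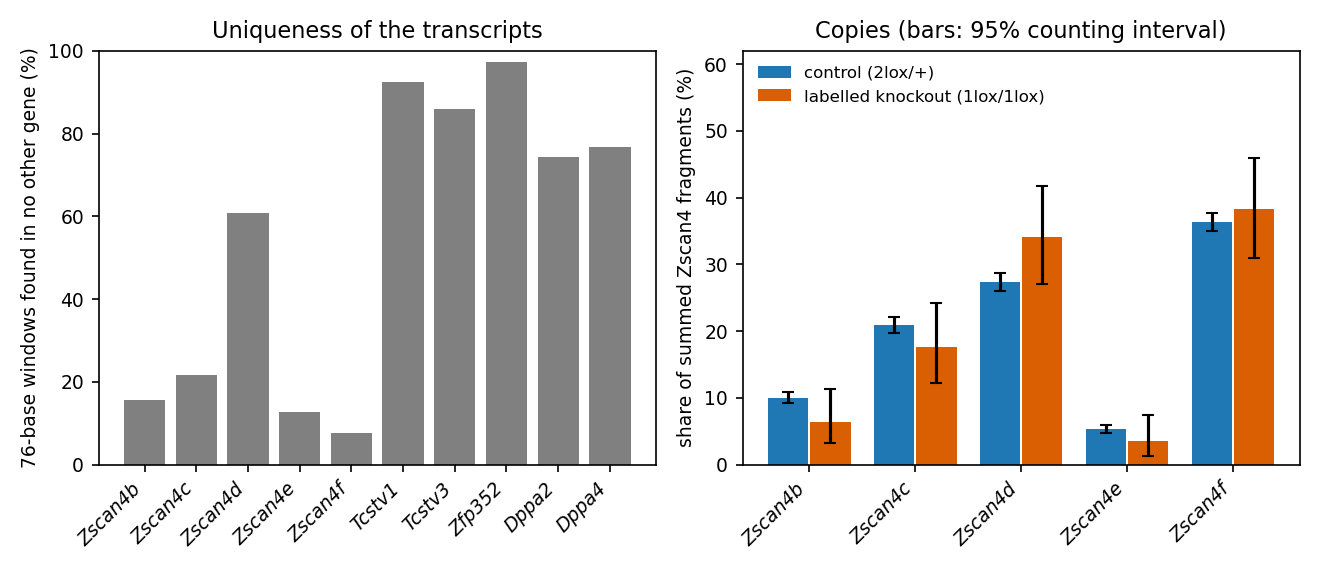
Left, share of 76-base windows of each member's longest transcript found in no other annotated gene (%); right, share of the summed Zscan4 fragments in each copy (%) for the control and the labelled knockout libraries, pooled over 3 lines, with 95% counting intervals. Zscan4f has the smallest unique share (7.70%) and the largest share of fragments (36.4% and 38.2%).

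Tcstv1 and Tcstv3, 2-cell-stage genes also linked to telomere length, and Zfp352, a zinc finger gene of the early embryo, were rare even in the controls. Tcstv1 (ENSMUSG00000096284, chr13:119893388-119894785, minus strand) had 38, 36 and 26 counts in the controls against 1, 2 and 0 in the libraries labelled knockout. Tcstv3 (ENSMUSG00000095821, chr13:120316878-120318178, plus strand) had 31, 30 and 31 against 2, 0 and 1. Zfp352 (ENSMUSG00000070902, chr4:90218820-90225702, plus strand) had 45, 28 and 30 against 2, 0 and 2. In all 3 genes no library labelled knockout passed 2 fragments. The ratio of control to labelled knockout was 31.7 (95% exact interval 10.5 to 156) for Tcstv1, 29.2 (9.67 to 144) for Tcstv3 and 24.5 (9.28 to 91.5) for Zfp352, so the size of each difference is poorly known. Leaving out 1 library moved the fitted log2 fold change of Tcstv1 from -4.83 to -5.72 (without labelled knockout replicate 2) and that of Tcstv3 from -4.71 to -5.56 (without labelled knockout replicate 1). The transcripts of Tcstv1 and Tcstv3 were 94.4% identical over 640 aligned bases, and 92.4% and 85.9% of their windows were in no other gene, against 97.3% for Zfp352.

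Dppa2 and Dppa4, nuclear proteins with a SAP domain, were abundant in both groups and only slightly lower in the libraries labelled knockout. Dppa2 (ENSMUSG00000072419, chr16:48303908-48319723, plus strand) had 4249, 4231 and 4212 counts in the controls and 3458, 3304 and 3818 in the libraries labelled knockout. Dppa4 (ENSMUSG00000058550, chr16:48283733-48294237, plus strand) had 3694, 3627 and 3644 against 2670, 2570 and 2801. The groups of neither gene overlap. Dppa2 was at 152.8 ± 1.58 cpm in the controls and 134 ± 1.43 cpm in the libraries labelled knockout (SD, n = 3), 87.7% of the control level. Dppa4 was at 132.0 ± 0.727 and 102 ± 2.60 cpm, or 77.1% of the control level. The ratio of control to labelled knockout was 1.14 (95% exact interval 1.11 to 1.17) for Dppa2 and 1.30 (1.26 to 1.33) for Dppa4, against 26.0 (22.3 to 30.5) for the summed Zscan4 fragments. Of their windows, 74.3% and 76.8% occurred in no other annotated gene.

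All 10 members were lower in each library labelled knockout than in every control library, where 36.2% of the genes tested were separated in that direction and 71.5% in either. The fitted log2 fold change was -3 or below for 8 members, and 2.06% of the genes tested were that low and passed the test. Nothing is read from these counts, since this contrast chose the members. In addition, 5 of the 10 members (Zscan4b, Zscan4e, Tcstv1, Tcstv3 and Zfp352, which had under 10 counts in every library labelled knockout) passed the filter on low counts through the controls alone and so had to be lower.

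**Figure D3:**
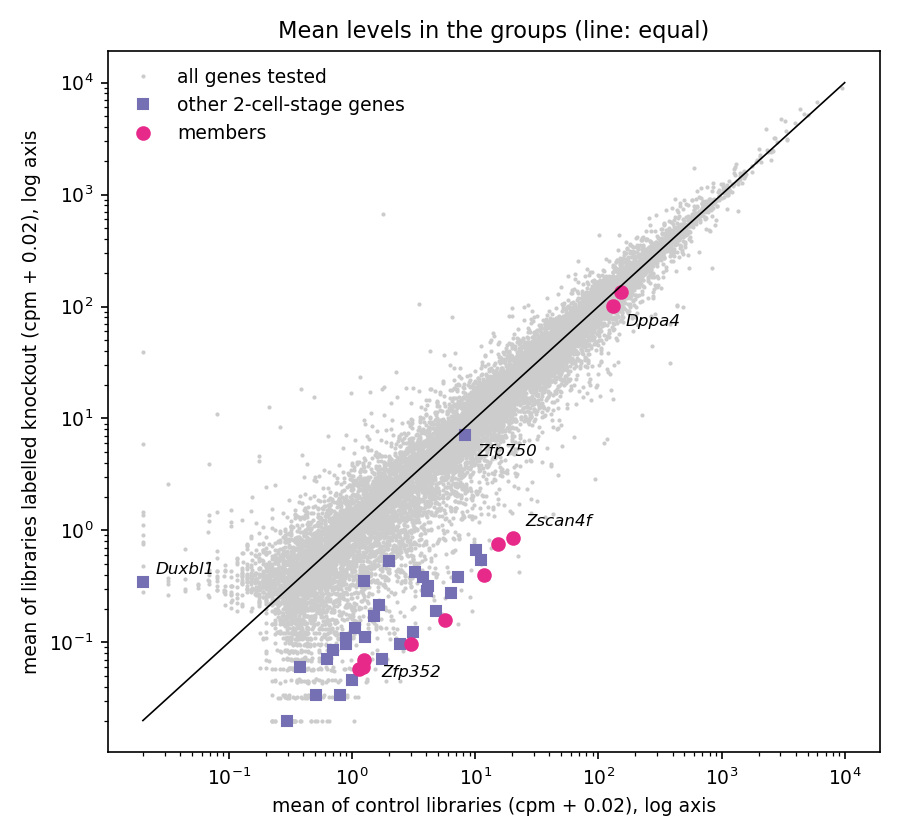
Mean level (cpm + 0.02, log axes) in the 3 control libraries against the 3 labelled knockout libraries for the 16823 genes tested (grey), other 2-cell-stage genes (squares) and the 10 members (circles); the line marks equal levels. The 8 genes below Dppa2 and Dppa4 lie at the lower edge of the cloud, whereas Dppa2 and Dppa4 lie just under the line.

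The order of the levels was taken per kilobase of the longest transcript. In the controls it ran from Dppa4 (89.3 ± 0.491 cpm per kb) and Dppa2 (62.4 ± 0.647) through Zscan4f (11.1 ± 0.462), Zscan4d (6.74 ± 0.149), Zscan4c (5.15 ± 0.328), Zscan4b (3.16 ± 0.371) and Zscan4e (1.70 ± 0.248) to Tcstv3 (1.42 ± 0.0249), Tcstv1 (0.940 ± 0.174) and Zfp352 (0.544 ± 0.139). Only Zscan4e and Tcstv3 overlapped among neighbours in this order. In the libraries labelled knockout Dppa4 (68.9 cpm per kb) and Dppa2 (54.7) again stood first. Zscan4f (0.452) and Zscan4d (0.326) overlapped there, Zscan4c followed at 0.167, and the levels from Zscan4b (0.0771) downwards overlapped between neighbours. As above, the places of the Zscan4 copies depend on how much of each is unique.

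The spread of the members between lines of a group was set against counting error. The chi-square statistic of the counts about their group mean, divided by its degrees of freedom, does not use the difference between groups. In the controls, where all 10 members could be tested, it ran from 0.00931 (Tcstv3) to 2.25 (Zfp352), with 0.207 for Zscan4d, 0.976 for Zscan4f, 0.457 for Dppa2 and 0.111 for Dppa4, against a median of 0.886 over 17182 genes. By this chi-square test 0 of the 10 members passed with Benjamini-Hochberg adjustment, where 2.27% of all genes passed. At an unadjusted p under 0.05 also 0 members passed, and the share of all genes at that threshold is not given here. Over both groups 5 members had enough counts, with ratios of 0.835 for Zscan4c, 0.942 for Zscan4d, 1.12 for Zscan4f, 0.434 for Dppa2 and 0.936 for Dppa4, against a median of 1.11. Again 0 passed with adjustment, against 5.49% of 16062 genes, and 0 at an unadjusted p under 0.05. The summed Zscan4 fragments had a coefficient of variation of 2.96% between control lines, and counting alone would give 2.54%. The coefficient was above that of counting alone for Zfp352 (25.5% against 17.1%) and Zscan4b (11.8% against 8.02%) and below it for Dppa4 (0.55% against 1.65%). With 3 lines a group such differences could not be resolved for any member, and 0 of 10 is close to what the share of all genes would give.

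The members lie at 4 loci, and their neighbours differed between these. The Zscan4 cluster is isolated. Its nearest tested gene on the side of lower coordinates was Zik1, a zinc finger gene 405346 bp away with 608, 561 and 598 counts in the controls and 680, 672 and 764 in the libraries labelled knockout, which rose (log2 fold change 0.33, edgeR adjusted p = 8.82e-08). On the other side it was Zfp551, 1012835 bp away, at 85, 88 and 87 against 87, 88 and 100 counts (log2 fold change 0.15, edgeR adjusted p = 0.266). No tested gene other than the members lay inside the cluster.

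Between Tcstv1 and Tcstv3 lay 6 other tested genes, of which 5 had lower counts in every library labelled knockout than in any control library and 1, Gm20900, did not pass the test (log2 fold change 0.41, edgeR adjusted p = 0.334). All 5 reached 10 counts in control libraries alone and so had to be lower. Gm21761 had 248, 247 and 290 counts in the controls and 3, 9 and 1 in the libraries labelled knockout (log2 fold change -5.80), and BC147527 had 40, 49 and 42 against 1, 3 and 1 (-4.54). Gm20767, AF067061 and Gm21818 had log2 fold changes of -5.05, -4.89 and -3.60. Tcstv1 shared 76-base windows with Gm21761, Gm20767, AF067061 and Gm21818, so fragments of these genes and of Tcstv1 are split only where their sequences differ. The nearest tested gene beyond Tcstv1, D13Ertd608e at 46818 bp, had 18, 24 and 20 against 1, 0 and 0 counts (log2 fold change -5.44) and likewise reached 10 counts in the controls alone. Within 1 Mb outside this pair 9 genes were tested, 7 of which were called lower and 2 of which did not pass, with a median log2 fold change of -0.92, where 35.2% of all genes tested were called lower. D13Ertd608e and AF067063 are among the 7, and both passed the filter through the controls alone.

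On chromosome 4, Zfp352 had no close tested neighbour. Cdkn2b, a cell cycle inhibitor 907781 bp away, fell from 109, 147 and 105 counts to 22, 25 and 32 (log2 fold change -2.11, edgeR adjusted p = 1.19e-15). Elavl2, an RNA-binding protein gene 1025061 bp away on the other side, had 1061, 1073 and 1057 against 952, 866 and 1053 counts and did not pass (log2 fold change -0.08, edgeR adjusted p = 0.0839). Next to Dppa2 and Dppa4, which adjoin each other on chromosome 16, Morc1, a germline gene 111514 bp away, fell (2679, 2686 and 2598 against 1978, 1782 and 2105 counts, log2 fold change -0.37, edgeR adjusted p = 8.64e-15). Nectin3, a cell adhesion gene 1785208 bp away, fell as well (log2 fold change -0.62, edgeR adjusted p = 1.42e-16). Of the 3 genes tested within 1 Mb of the pair 1 fell and 2 rose, with log2 fold changes from -0.37 to 0.21. The fitted log2 fold change was -0.37 for Dppa4 and -0.19 for Dppa2. In the plot of the 4 loci they lie close to their neighbours, while those of the Zscan4 copies lie far below those of any tested gene around them.

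**Figure D4:**
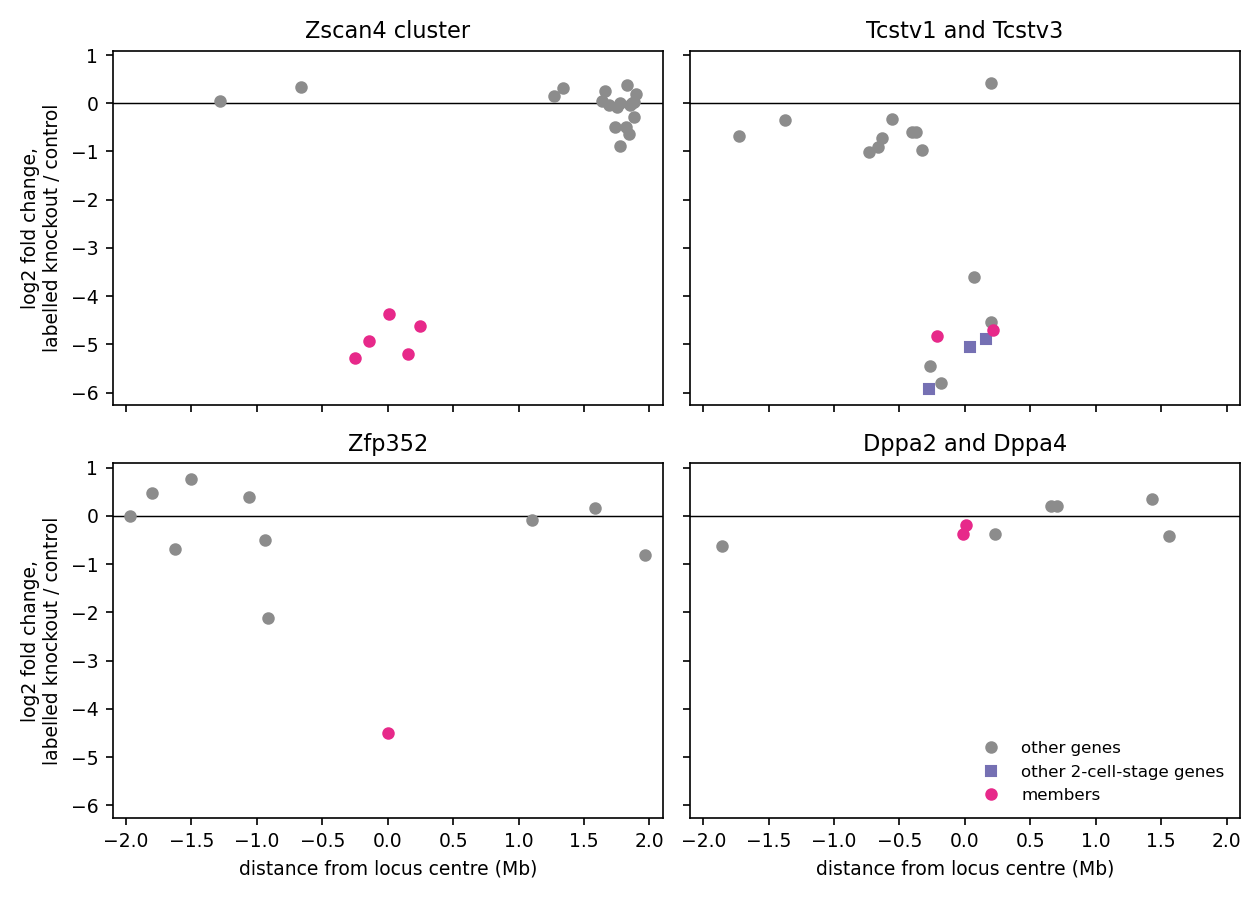
Log2 fold change (labelled knockout over control) of the tested genes against their distance from the centre of each of the 4 member loci (Mb), with members (pink circles), other 2-cell-stage genes (squares) and other genes (grey circles). The 5 Zscan4 copies lie between -5.29 and -4.37 with no other tested gene inside the cluster, whereas Tcstv1 and Tcstv3 lie among other genes at similar values.

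The other genes of the 2-cell-like program were taken from a list of 41 symbols, of which 35 were found in the table. Zscan4a, Zscan4-ps1, Zscan4-ps2, Zscan4-ps3, Gm2022 and AF067057 were not analysed here. Of the 29 that passed the filter on low counts, 28 were called lower and 1, Duxbl1, higher, against 35.2% and 34.4% of all genes tested, and 27 had a log2 fold change of -1 or below, against 11.8%. The median log2 fold change was -3.74, where that of all genes was 0.00. However, 19 of the 29 passed the filter through the control libraries alone and so had to be lower, Duxbl1 passed through the other group alone, and the list was drawn up with earlier results of these data known. The summed level of the list was 83.6 to 86.8 cpm in the controls and 12.2 to 13.8 cpm in the libraries labelled knockout, so the groups do not overlap. The fibroblast markers moved in the same direction, and their part here was not tested.

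Of this list, Gm8300, which encodes a protein like the initiation factor eIF1A, had 340, 305 and 276 counts against 12, 15 and 14 (log2 fold change -4.40, SE 0.148, edgeR adjusted p = 3.17e-30). Tmem92, a transmembrane protein gene, had 182, 165 and 178 against 4, 9 and 7 (-4.62, SE 0.196). Usp17lb, a deubiquitinase gene, had 129, 146 and 119 against 7, 6 and 0 (-4.81, SE 0.260). The other named genes of the list were rarer but as far apart. The log2 fold change was -4.89 (SE 0.288) for AF067061, -4.92 (SE 0.323) for Gm12794, -4.96 (SE 0.405) for Tdpoz4, -5.05 (SE 0.558) for Gm20767 and -5.51 (SE 0.672) for Gm10696. Of these 8 genes, Gm8300 alone reached 10 counts in a library labelled knockout, and the others had to be lower. Most of these genes belong to families of near-identical copies, so fragments shared between copies are missing from their counts.

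Dux itself, listed as Duxf3, was close to the limit of detection, with 11, 6 and 13 counts in the controls against 1, 2 and 0 in the other group. The ratio of control to labelled knockout was 9.51 (95% exact interval 2.96 to 48.7), with a log2 fold change of -3.10 (SE 0.714), and Duxf3 too reached 10 counts in the controls alone. Duxbl1, a double homeobox gene related to Dux, had 0, 0 and 0 counts against 4, 9 and 13, and so was at least 9.12-fold higher in the libraries labelled knockout (counting 3 fragments over the 3 control libraries). It passed the filter through the libraries labelled knockout alone and so had to be higher, and it was named after its values had been seen. Zfp750 had the smallest decrease of the list, with 258, 221 and 210 against 187, 182 and 189 counts (log2 fold change -0.23, edgeR adjusted p = 0.0175).

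Of 20 genes reported to hold the 2-cell-like state in check 7 fell, 7 rose and 6 did not pass the test, with a median log2 fold change of 0.01. These shares are close to those of all genes tested (69.5% called, 35.2% lower and 34.4% higher), so they are no result about the list. Only the nucleolar protein gene Ncl reached a change above 0.6 in either direction. Ncl rose by 0.64 (edgeR adjusted p = 1.47e-31). The histone H3 lysine 9 methyltransferase genes Ehmt1 and Ehmt2 fell by 0.53 and 0.31 on the log2 scale (edgeR adjusted p = 5.33e-21 and 2.32e-14), and L3mbtl2, a subunit of a Polycomb complex, fell by 0.51 (edgeR adjusted p = 3.95e-23). The corepressor gene Trim28, the chromatin assembly factor gene Chaf1a, and Rif1, Pcgf6, Mga and Smarcad1 did not pass. Of other reported activators, the T-box factor gene Tbx3 rose by 1.45 (SE 0.0326, edgeR adjusted p = 1.64e-37) and Nelfa, a subunit of the negative elongation factor, fell by 0.27 on the log2 scale (edgeR adjusted p = 2.33e-10), and Obox4 was not analysed here.

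**Figure D5:**
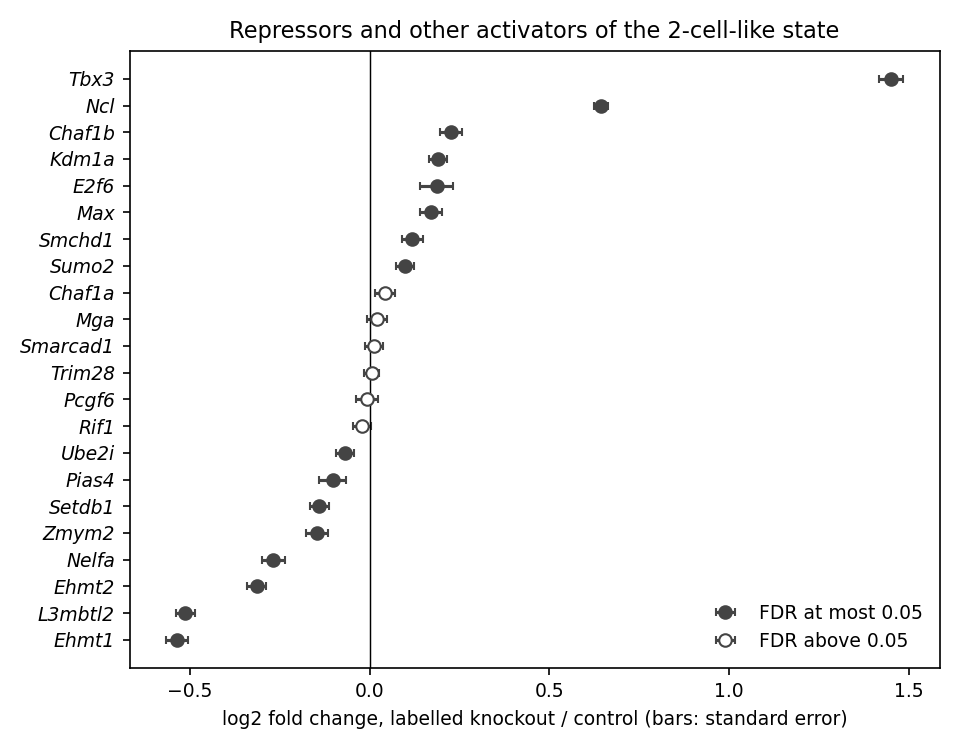
Log2 fold change (labelled knockout over control) with its standard error for 20 reported repressors and 2 other reported activators of the 2-cell-like state, filled where the adjusted p was at most 0.05. Tbx3 stands apart at 1.45, and the others lie between -0.53 and 0.64.

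Germline and developmental genes described as depending on Dppa2 and Dppa4 did not move together. Mael, a gene of transposon silencing in the germline, fell by 0.28 on the log2 scale (edgeR adjusted p = 0.00139). Syce1, a synaptonemal complex gene, rose by 0.93 (edgeR adjusted p = 7.02e-24) and Trap1a, a tumour antigen gene, by 0.47 (edgeR adjusted p = 1.36e-18). The cardiac homeobox gene Nkx2-5 had 14, 13 and 18 counts against 9, 16 and 5 and did not pass (log2 fold change -0.51, edgeR adjusted p = 0.228). Of the other genes named for developmental pluripotency, the maternal factor gene Dppa3 fell by 0.11 on the log2 scale (edgeR adjusted p = 0.0118) and Dppa5a rose by 0.20 (edgeR adjusted p = 4.58e-11). Dppa1, at 1, 1 and 0 against 0, 0 and 0 counts, was too low to test.

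The genes whose profile over the 6 libraries was nearest to that of the summed Zscan4 fragments were found by the root mean square difference of log2(cpm + 1), each gene taken relative to its own mean, over 14120 genes. They were Sned1, a matrix protein gene (difference 0.0744), the growth factor gene Igf2 (0.0792), the muscle actin gene Acta1 (0.137), the actin-binding protein gene Tagln (0.137) and the keratin gene Krt18 (0.156). Sned1 had 1152, 1225 and 1180 counts in the controls and 41, 30 and 39 in the libraries labelled knockout, and Igf2 had 1020, 1004 and 1045 against 34, 34 and 34. For Dppa4 the nearest were Smarcc2 (0.0107), Arhgdia (0.0143), Daxx (0.0150), Shc1 (0.0151) and Shkbp1 (0.0155). Smarcc2, a chromatin remodelling gene, had 1045, 1012 and 1026 counts against 754, 714 and 792. With only 2 groups, this measure orders genes mainly by the size and direction of their difference between the groups once 1 cpm is added. The added 1 cpm shrinks the differences of rare genes, so rarer 2-cell-stage genes could hardly rank near the summed Zscan4 fragments. Gm8300, at 11.1 cpm in the controls and 0.522 cpm in the libraries labelled knockout, was not among the nearest, although its fitted log2 fold change was -4.40.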

How the data were processed

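The deposited values are raw fragment counts per gene, which the authors made from paired 76 bp reads of TruSeq Stranded mRNA libraries (2 µg total RNA, 8 PCR cycles). The submitters' processing notes name CASAVA 1.8.2, Bowtie2 2.1.0, TopHat2 2.0.10, HTSeq 0.6.1 and mm10. Fragments were counted against GENCODE Release M4 in union mode, and those on the antisense strand, in several genes or at several locations were discarded, which lowers the counts of near-identical copies. From these counts, genes that reached 10 counts in any library were tested with edgeR 4.0.16 in R 4.3.3 (TMM, glmQLFit and glmQLFTest, no covariate, Benjamini-Hochberg over 16823 genes, threshold 0.05), and DESeq2 1.42.0 was an alternative. The scripts were tested on simulated data. Library totals were 25042261 to 28838924 counts. Exact binomial intervals (95%) cover counting error only.

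Symbols, coordinates and transcripts came from GENCODE Release M21 on the same build (42425 of 43309 genes matched by Ensembl identifier), and promoter windows from RefSeq. A level under 3 fragments over a group was treated as the floor. Windows of 76 bases were compared with the transcripts of all other genes.

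The members and lists were chosen with earlier results of these data known. Named besides the members were the 8 other 2-cell-stage genes with the largest change among those passing (mean of at least 10 counts) and Duxf3, the 6 most changed regulators, the genes listed as depending on Dppa2 and Dppa4, other Dppa genes, the 3 most changed other Zscan genes, the nearest tested neighbours of each locus, and the 5 genes nearest in profile (mean of at least 20 counts). Genes inside the Tcstv locus, Duxbl1, Zfp750, Zfp42, Col1a1, Col3a1, Sox17, Foxa2 and the regulators and Zscan genes that did not pass were named after their values were seen. Alternatives were the scaling, the filter, a minimum fold change, DESeq2, the replicate number as a block and leaving out each library. The spread of the control lines alone was added after seeing the data.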

Additional observations from a re-analysis of the deposited data

How the results depend on the processing

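All 10 members had lower levels in the libraries labelled knockout under every alternative tried for them. Nothing is read from this direction, since this contrast chose the members. Zscan4b, Zscan4e, Tcstv1, Tcstv3 and Zfp352 also passed the filter of 10 counts through the controls alone and so had to be lower under it. Of the 117 alternative values of the members 112 moved by less than the spread between replicates and 0 reversed. The exceptions were Zscan4e (-6.98), Tcstv1 (-5.72) and Tcstv3 (-5.56) without 1 library labelled knockout, as above, and Dppa2 (-0.24) and Dppa4 (-0.42) with library totals in place of TMM. The summed Zscan4 log2 ratio was -4.70, and -4.77 to -4.63 with 1 library left out. A fold change of at least 1 on the log2 scale left 2865 of 11697 genes called (1988 lower, 877 higher) and 1 of 16 regulators, Tbx3. A minimum of 50 counts left 15 of the 29 other 2-cell-stage genes, all 15 that could then be tested. Of these, Zfp750 alone reached 50 counts in a library labelled knockout, and the others had to be lower. The 19 genes that passed the filter of 10 counts through the controls alone had to be lower in the counts below too. DESeq2 called 10326 genes, 28 other 2-cell-stage genes and 15 regulators. With 1 library left out the counts were 11100 to 11330, 28 to 29 and 14 to 17, and 0 members passed the test of spread. The replicate numbers did not pair the lines, since deviations of same-numbered libraries correlated at 0.014, 0.074 and 0.015 over 12360 genes and not every library correlated best with its own number. With the replicate block 11801 genes, 29 other 2-cell-stage genes and 16 regulators were called. Counts of 5 or fewer in each library labelled knockout limit the ratios of Zscan4b, Zscan4e, Tcstv1, Tcstv3 and Zfp352.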

Other observations

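Of 12 other genes named Zscan, for a SCAN domain and zinc fingers, 3 fell, 7 rose and 2 (Zscan18 and Zscan22) did not pass. Of all genes tested 35.2% were called lower and 34.4% higher. The median log2 fold change of the list was 0.15, and no change reached 1 in either direction. The largest changes were those of Zscan30, Zscan5b and Zscan12. Zscan30, annotated as a transcribed processed pseudogene, rose by 0.79 (edgeR adjusted p = 8.81e-04). Zscan5b fell by 0.77 on the log2 scale (edgeR adjusted p = 1.92e-05), and Zscan12 rose by 0.65 (edgeR adjusted p = 2.82e-14). The summed level of the 12 genes was 399 to 408 cpm in the controls and 378 to 397 cpm in the libraries labelled knockout. Zscan10, a gene of undifferentiated cells, had 5852, 5937 and 5844 counts against 4595, 4433 and 5010, and was named after its values had been seen.

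Among the 2-cell-stage genes too low to test, Gm4340 had 6, 5 and 8 counts in the controls and 0, 0 and 0 in the libraries labelled knockout, at least 6.02-fold lower when 3 fragments are counted over the group. AF067063 was tested (log2 fold change -5.93, SE 1.36), but it passed the filter through 1 control library alone and so had to be lower. It had 16, 1 and 6 counts against 0, 0 and 0, at least 7.29-fold lower.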
